A study of Camellia sinensis with 15 samples.

Results

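CSS0004428 is the gene of the tea plant (Camellia sinensis) that the study annotated as a CBL, a calcineurin B-like calcium sensor. It was taken by its identifier, and it is 1 of the 59128 genes listed for each root library. The study had singled this gene out from these same libraries as higher in every treated group, so its levels are not independent evidence of that direction.

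Roots of 2-year-old seedlings of the cultivar Fuding Dabaicha, labelled WT, were sequenced. The pots had received 400 mL of solution with 120 mg/kg of Cd or of As, or had been left untreated. By the study's methods, roots were collected at 15 d of Cd (Cd2), 10 d of Cd (Cd1), 15 d of As (As2) and 10 d of As (As1), and untreated roots served as the control (CK). The labels give day 15 for every library, so the sampling times rest on the methods alone. For CK the methods name no collection day and no metal-free solution. Metal, added solution and collection time therefore cannot be told apart in comparisons with CK. The labels name 3 libraries for each of the 5 groups, but every value of the third Cd1 library equalled that of Cd2 replicate 1, whose name stands in its header. These values were used as Cd2 replicate 1 only, which left 14 libraries, 2 in Cd1 and 3 in every other group. Nothing in the labels says whether replicates came from separate plants, so p-values measure the spread between these libraries.

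CBL proteins bind calcium through EF hands and then attach to protein kinases named CIPK (CBL-interacting protein kinases), which they activate and bring to a membrane. In Arabidopsis, CBL and CIPK pairs in roots control the transport of potassium, sodium and nitrate, and calcium signals of this kind follow salt, drought and metal exposure. CBL proteins are sensors, so the amount of transcript says nothing by itself about calcium in the cell. Sequence, position and Arabidopsis counterpart of the gene were not used here. No other CBL or CIPK gene was named, since 0 of the CSS identifiers occur in the deposited annotation or in the RefSeq gene table at hand. For the same reason the root label was not checked against marker genes.

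FPKM is the number of read fragments scaled to transcript length and by a factor for each library. For CSS0004428 it was higher in most Cd- and As-treated libraries than in CK, but replicates of each treatment differed widely. In Cd2 the gene had an FPKM of 15.4, 46.4 and 4.61 in replicates 1, 2 and 3. In Cd1 it had an FPKM of 12.7 in replicate 1 and 40.7 in replicate 2. In As2 the FPKM was 4.003, 48.3 and 62.7 in replicates 1, 2 and 3. One As2 library therefore lay at the level of untreated roots and the other two were the highest of the whole series. In As1 the FPKM was 21.2, 37.1 and 3.83 in replicates 1, 2 and 3. In CK it was 4.95, 2.19 and 4.95, so that no untreated library reached 5.

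Of the 11 treated libraries, 8 lay above the highest CK library, with 4 of 5 under Cd and 4 of 6 under As. The lowest of these 8, Cd1 replicate 1, was 2.56 times the highest CK library, and no library lay in the gap between them. The other 3 treated libraries, namely Cd2 replicate 3, As2 replicate 1 and As1 replicate 3, fell inside the CK range. Both Cd1 libraries lay above all CK libraries, and each of the other treated groups had 1 library inside the CK range. How many of all genes tested had libraries separated in this way was not counted. With so few libraries per group, these counts do not show that such a separation is rare. In bulk RNA, more cells that express the gene and more RNA of it per cell cannot be told apart.

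**Figure D1:**
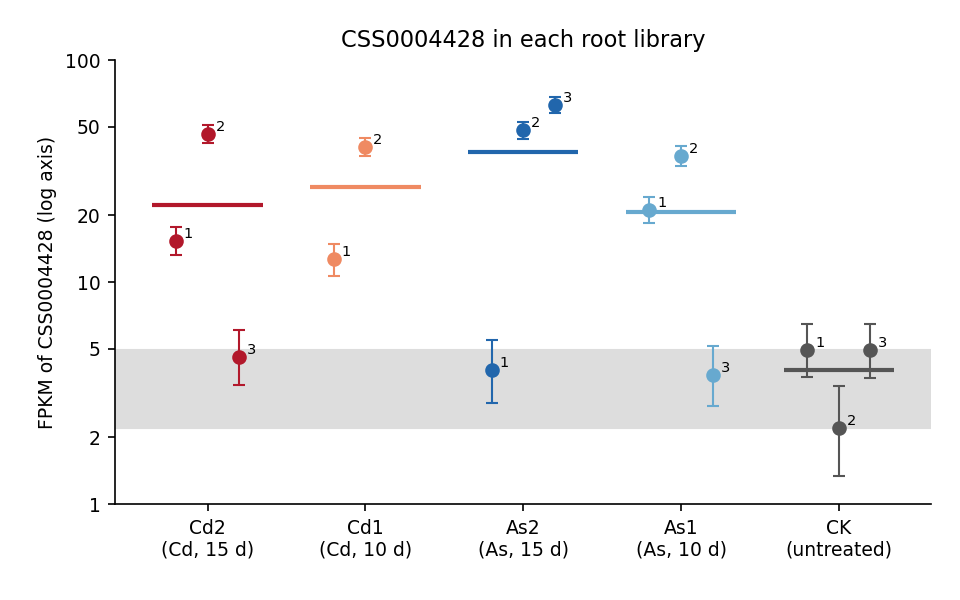
FPKM of CSS0004428 (log axis) in each of the 14 libraries by group, with the replicate number beside each point, the 95% Poisson interval of its fragments as a bar, the group mean as a line and the CK range from 2.19 to 4.95 as a grey band. The 3 treated libraries at 4.61, 4.003 and 3.83 sit in the CK band, and the other 8 treated libraries lie between 12.7 and 62.7.

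The fragments behind these values were recovered, since the FPKM of a gene are whole multiples of the value of 1 fragment. For CSS0004428 the largest distance from a whole number was 5.46e-08 fragments, and the values correspond to a gene length of 860 bases in the authors' annotation. The gene had 192, 460 and 51 fragments in Cd2, 147 and 454 in Cd1, 39, 477 and 595 in As2, 220, 376 and 43 in As1, and 54, 20 and 52 in CK. The libraries held between 10482486 and 13846170 recovered fragments, with a median of 12178930. With these fragments of the gene, counting error was small, with a coefficient of variation between 4.10% and 22.4% per library. The intervals cover counting error only. The 95% Poisson interval was 2.85 to 5.47 FPKM in As2 replicate 1 and 44.1 to 52.8 FPKM in As2 replicate 2, so that these replicates differed by far more than counting allows. Of the 3 treated libraries inside the CK range, Cd2 replicate 3 held 12539951 fragments in all, As2 replicate 1 held 10482486, the fewest of the 14, and As1 replicate 3 held 13367423.

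By mean FPKM the groups ranked As2, Cd1, Cd2, As1 and CK. The mean was 22.1 ± 21.7 (SD, n = 3) in Cd2, 26.7 ± 19.8 (n = 2) in Cd1, 38.3 ± 30.6 (n = 3) in As2, 20.7 ± 16.6 (n = 3) in As1 and 4.03 ± 1.59 (n = 3) in CK. The range of libraries overlapped between every pair of neighbours in this order, from 4.003 to 62.7 in As2, 12.7 to 40.7 in Cd1, 4.61 to 46.4 in Cd2, 3.83 to 37.1 in As1 and 2.19 to 4.95 in CK. Relative to CK, the mean FPKM was 5.49 times as high in Cd2, 6.62 times in Cd1, 9.51 times in As2 and 5.13 times in As1. Each of these ratios was larger than the fold on the log scale, which weighs the highest libraries less.

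Whether the gene was higher in Cd- or As-treated roots than in CK was tested with limma on log2(FPKM + 1). The model was fitted over 33109 genes that reached an FPKM of 1 in 3 or more libraries. DEGs (differentially expressed genes) had an adjusted p (Benjamini-Hochberg) under 0.05 and an absolute log2 fold change over 1. On this scale the change of genes with low FPKM is understated. In Cd2 vs. CK the log2 fold change was 1.76 ± 1.01 (SE), with 2 of 3 libraries above all CK libraries (limma adjusted p = 0.504). In Cd1 vs. CK it was 2.304 ± 1.13, with 2 of 2 libraries above CK (limma adjusted p = 0.283). In As2 vs. CK it was 2.37 ± 1.01, with 2 of 3 above CK (limma adjusted p = 0.514). In As1 vs. CK it was 1.72 ± 1.01, with 2 of 3 above CK (limma adjusted p = 0.389). CSS0004428 was thus a DEG in none of the 4 comparisons, all of which share the CK libraries. This differs from the study, which listed the gene as an up-regulated DEG in all 4. The study used the same thresholds but another procedure, and 3 libraries for Cd1. In each of these comparisons it reported more DEGs than were found here. The numbers here were 11 in Cd2, 1053 in Cd1, 5 in As2 and 535 in As1. The lower number of calls was thus general and not particular to this gene. The study also described its qRT-PCR results as generally matching the sequencing. Among all genes tested, DEGs made up 0.0332% in Cd2 vs. CK, 3.18% in Cd1 vs. CK, 0.0151% in As2 vs. CK and 1.62% in As1 vs. CK. Without adjustment, p from limma was 0.107 in Cd2, 0.0633 in Cd1, 0.0360 in As2 and 0.113 in As1, where 12.5%, 19.9%, 9.04% and 18.6% of all genes tested had an unadjusted p under 0.05.

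These tests do not show that the gene was the same in treated and untreated roots. The 95% interval of the log2 fold change ran from -0.44 to 3.95 in Cd2, from -0.15 to 4.76 in Cd1, from 0.18 to 4.57 in As2 and from -0.47 to 3.92 in As1. Each interval holds both a small change and one of more than 8-fold. The lower ends depended on the fit. With only the groups compared in the model, all of them lay above 0, at 0.11 in Cd2, 1.04 in Cd1, 0.24 in As2 and 0.10 in As1. With limma-voom on the recovered fragments, all of them lay below 0, at -1.32 in Cd2, -0.76 in Cd1, -0.60 in As2 and -1.39 in As1. Single libraries moved the fold change by a large part of its size. In As2 vs. CK it was 3.54 without As2 replicate 1 and 1.70 without As2 replicate 3, and in Cd2 vs. CK it was 2.53 without Cd2 replicate 3 and 0.99 without Cd2 replicate 2. In Cd1 vs. CK it was 3.11 without Cd1 replicate 1 and 1.499 without Cd1 replicate 2, and in As1 vs. CK 2.59 without As1 replicate 3 and 1.097 without As1 replicate 2. The gene was not a DEG in any of these fits.

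**Figure D2:**
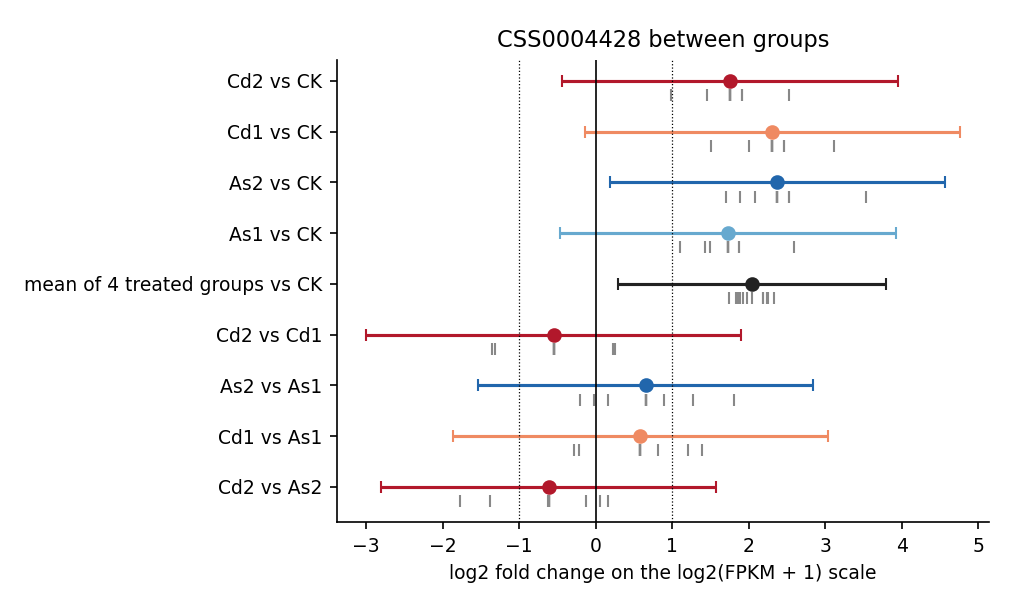
Log2 fold change of CSS0004428 in 9 comparisons (points, limma on log2(FPKM + 1)) with 95% intervals (bars), and the values without each library in turn as grey ticks beneath, where dotted lines mark a log2 fold change of 1 in either direction. The 4 comparisons with CK lie between 1.72 and 2.37, and in this fit only the intervals of As2 vs. CK and of the mean of the treated groups stay above 0, both of which cross 0 with limma-voom.

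Among increases, the change was high in rank on the log2(FPKM + 1) scale, and the ranks count from the highest positive log2 fold change. In As2 vs. CK only 4 of the 33109 genes tested had a higher log2 fold change, which placed CSS0004428 at rank 5. It held rank 38 in Cd2, rank 33 in Cd1 and rank 108 in As1. Averaged over the 4 treated groups, the log2 fold change was 2.04 ± 0.811 (SE), the second highest of all genes tested, behind CSS0046609 with 2.16 ± 0.580. These ranks depended on the scale. With a pseudocount of 0.1 they were 366 in Cd2, 242 in Cd1, 94 in As2, 324 in As1 and 70 for the mean of the treated groups. With limma-voom on the recovered fragments they were 409 in Cd2, 243 in Cd1, 92 in As2, 370 in As1 and 73 for the mean. Neither gene passed the threshold in that comparison, with limma adjusted p = 0.285 for CSS0004428 and limma adjusted p = 0.120 for CSS0046609, whereas 0.510% of all genes tested did. The unadjusted p of CSS0004428 from limma was 0.0261, with 8 of 11 treated libraries above all CK libraries. The study had chosen CSS0004428 from these libraries as higher in every treated group, so a high rank was partly built in. The highest-ranked genes for the mean had SDs between replicates of 1.04, 1.47 and 1.62, beside a median of 0.373 over all genes tested. CSS0046609 was named after its values were seen.

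When the 11 treated libraries were set against the 3 CK libraries without regard to group, the mean log2(FPKM + 1) was 4.29 in treated and 2.27 in CK roots, a difference of 2.01. An exact two-sided permutation test over all 364 arrangements of the libraries gave p = 0.0549, where the smallest p this design allows is 0.00549. The call at 0.05 turned on single libraries. Without Cd2 replicate 3, As1 replicate 3 or As2 replicate 1, each of them inside the CK range, the exact permutation p was 0.0420. Without CK replicate 2, the lowest of all libraries, it was 0.256. Leaving out a CK library raises the smallest possible p more than leaving out a treated one. The 0.256 is therefore not directly comparable with the other values.

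**Figure D3:**
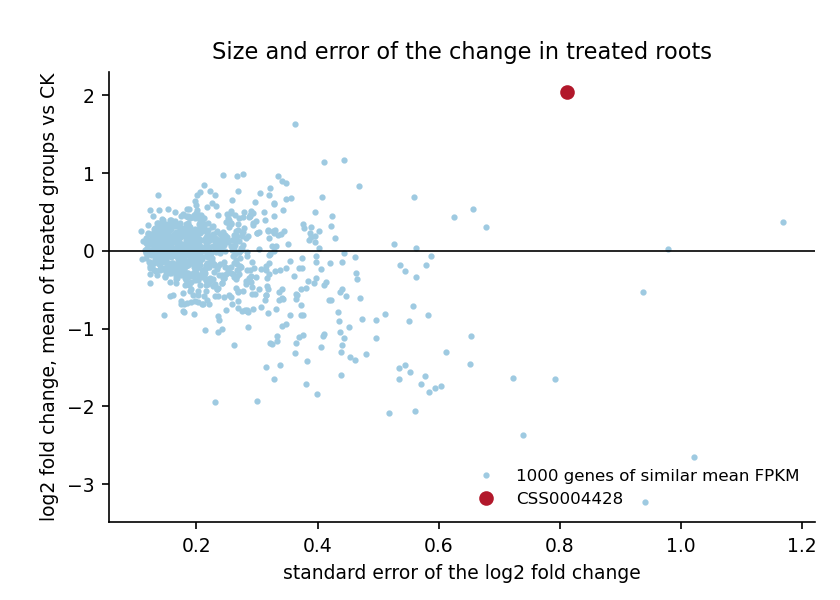
Log2 fold change of the mean of the treated groups vs. CK (vertical axis) against its standard error (horizontal axis) for CSS0004428 (red) and the 1000 genes nearest to it in mean log2(FPKM + 1) (blue). CSS0004428, at 2.04 with a standard error of 0.811, lies above all of these genes and far to the right of most of them.

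Time and metal did not separate the treated groups beyond the spread of their libraries. From 10 d to 15 d the log2 fold change was -0.55 under Cd (Cd2 vs. Cd1, 95% interval -2.9998 to 1.90, limma adjusted p = 0.881) and 0.65 under As (As2 vs. As1, -1.54 to 2.84, limma adjusted p = 0.791). Between metals it was 0.58 at 10 d (Cd1 vs. As1, -1.87 to 3.03, limma adjusted p = 0.829) and -0.62 at 15 d (Cd2 vs. As2, -2.81 to 1.57, limma adjusted p = 0.860). DEGs made up 1.53%, 2.10%, 1.63% and 0.00302% of all genes tested in these 4 comparisons. The intervals are wide enough to hold a change of more than 2-fold in either direction, and the sign of each difference turned without single libraries. Cd2 vs. Cd1 became 0.26 without Cd1 replicate 2 and 0.22 without Cd2 replicate 3, and As2 vs. As1 became -0.21 without As1 replicate 3 and -0.02 without As2 replicate 3. Cd1 vs. As1 became -0.23 without Cd1 replicate 2 and -0.28 without As1 replicate 3, and Cd2 vs. As2 became 0.15 without Cd2 replicate 3 and 0.06 without As2 replicate 3.

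The variation of CSS0004428 between replicates was unusual for a gene of its level. Its pooled within-group SD of log2(FPKM + 1) was 1.47 (9 residual degrees of freedom). Among the 1000 tested genes nearest to it in mean log2(FPKM + 1), which lay between 3.76 and 3.95 beside its own 3.86, the median SD was 0.309 and 95% of the genes had an SD under 0.791. Only 5 of the 1000 genes had a larger SD, which places CSS0004428 at the 99.5th percentile, with an SD 4.76 times the median. Over all 33109 genes tested, 113 had a larger SD. Counting error alone would give a pooled SD of 0.134 on this scale. The percentile is a description of these libraries, and no test was made of it. Its residual SD of 1.47 was pulled to 1.24 in the fit, toward the 0.287 typical of its level, so that the standard errors above are smaller than its own replicates would give, and still 4.10 times the median standard error of the 1000 similar genes.

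**Figure D4:**
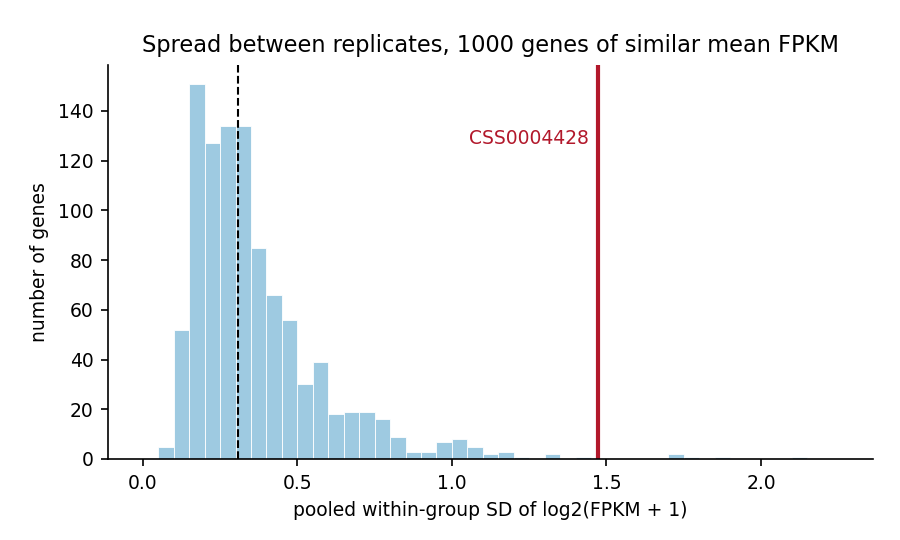
Number of genes (vertical axis) by pooled within-group SD of log2(FPKM + 1) (horizontal axis). Shown are the 1000 genes nearest to CSS0004428 in mean log2(FPKM + 1). The dashed line is their median of 0.309 and the red line is CSS0004428. CSS0004428, at 1.47, lies beyond all but 5 of the genes.

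The wide spread was seen in the treated groups. The SD of log2(FPKM + 1) was 1.54 in Cd2, 1.14 in Cd1, 2.02 in As2 and 1.54 in As1, but 0.519 in CK. In Cd2, 2 of the 1000 similar genes had a larger SD, beside 33 in Cd1, 6 in As2 and 5 in As1. In CK, 179 of them had a larger SD. The similar genes were matched on the mean over all libraries, where CSS0004428 had 3.86, but in CK it averaged 2.27. The log2(FPKM + 1) scale also narrows the spread at low FPKM. The place of the gene in CK is therefore not a like comparison with the treated groups. The highest library of a group exceeded the lowest 10.1-fold in Cd2, 3.22-fold in Cd1, 15.7-fold in As2, 9.68-fold in As1 and 2.26-fold in CK. Whether the spread differed between treated and untreated roots was not tested. Within-group differences made up 64.8% of the total sum of squares of CSS0004428, beside a median of 51.2% in the similar genes, of which 266 had a larger share. The share of its variation that lay between groups was thus not unusual, and what stood out was the size of both parts.

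**Figure D5:**
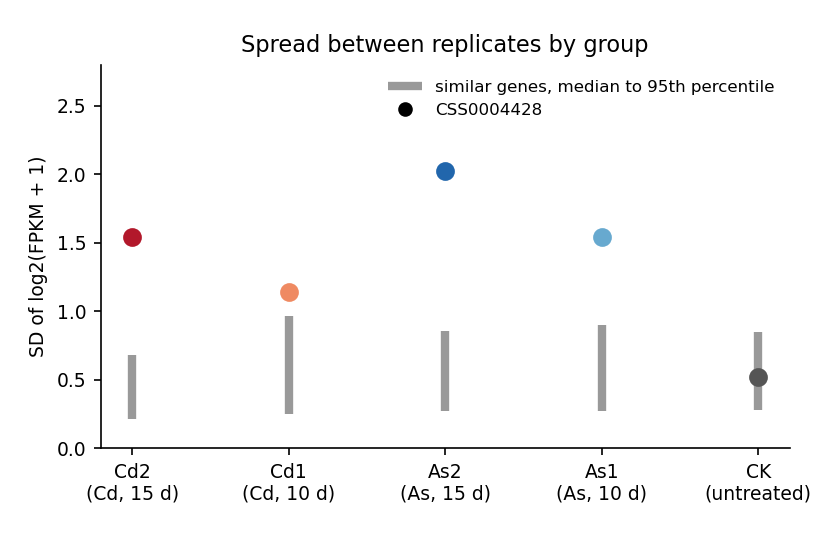
SD of log2(FPKM + 1) between replicates of CSS0004428 (points) in each group. Grey bars span the median to 95th percentile of the 1000 genes nearest to it in mean log2(FPKM + 1) over all libraries. The points at 1.54, 1.14, 2.02 and 1.54 in Cd2, Cd1, As2 and As1 lie above the bars, and the point at 0.519 in CK lies inside.

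The genes of almost the same mean show how the similar genes behaved. The 5 nearest genes in mean log2(FPKM + 1) were CSS0036676, CSS0041634, CSS0043964, CSS0027284 and CSS0008326, with pooled SDs of 0.636, 0.503, 0.288, 0.679 and 0.346. CSS0043964 ranged from 8.12 to 22.5 FPKM over the 14 libraries and CSS0008326 from 8.13 to 24.1, each under 3-fold, and CSS0041634 ranged 3.38-fold. CSS0036676 ranged 13.9-fold, from 3.33 to 46.4 FPKM. CSS0027284 ranged 154-fold, from 0.296 to 45.5 FPKM, wider than the 28.6-fold range of CSS0004428. The pooled SDs within groups of all 5 genes lay below that of CSS0004428.

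No relation with a library property passed its test. Over the 14 libraries, log2(FPKM + 1) of CSS0004428 had a Pearson r of -0.11 with the number of recovered fragments (permutation p = 0.713, Spearman rho = -0.18, permutation p = 0.533). The r was -0.17 with the number of genes above 0 (permutation p = 0.552, rho = -0.03, permutation p = 0.928) and 0.28 with the share of fragments in the 100 most abundant genes (permutation p = 0.323, rho = 0.20, permutation p = 0.495). After Benjamini-Hochberg adjustment over the 3 relations, p was 0.713 for each r. Without the 2 libraries farthest from the median of the property, r was -0.31, -0.01 and 0.22 in the same order. Over the genes tested, r between libraries was 0.920 to 0.959 within groups and 0.840 to 0.944 between groups.

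Few genes followed CSS0004428 from library to library. Over the 14 libraries, none of the other 33108 genes tested reached a Pearson r of 0.9 with it on log2(FPKM + 1), and none reached -0.9. The median similar gene had 1 partner at or above 0.9, and 615 of the 1000 had more than CSS0004428. These correlations are across libraries that share groups and are given as a description. The most alike were a locus that the authors' pipeline added to the annotation (r = 0.84), CSS0018386 (0.81), CSS0022774 (0.80), CSS0009740 (0.79) and CSS0033885 (0.79). The FPKM of the added locus was 12.9, 35.1 and 18.1 in Cd2, 19.97 and 27.3 in Cd1, 7.50, 28.2 and 40.6 in As2, 26.6, 25.4 and 13.1 in As1, and 9.70, 16.1 and 14.6 in CK. It was lowest in As2 replicate 1 and highest in As2 replicate 3, where CSS0004428 was low and highest, but its range was narrower. The least alike was CSS0037503 (r = -0.85), with an FPKM of 7.09, 6.53 and 6.93 in Cd2, 6.12 and 6.09 in Cd1, 8.58, 6.43 and 5.37 in As2, 6.05, 5.14 and 9.01 in As1, and 7.84, 11.1 and 7.83 in CK. Next to it were CSS0042966 (-0.81), CSS0036281 (-0.79) and CSS0046649 (-0.78).

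The 7 other genes that the study took to qRT-PCR beside CSS0004428 had other levels over time than CSS0004428. They are an ERF transcription factor (CSS0000647), an NCED of abscisic acid synthesis (CSS0033791), a raffinose synthase (CSS0050491), the galactinol synthases CSS0001107, CSS0019367 and CSS0035212, and a HIPP metal-binding protein (CSS0006162). All 7 passed the filter, and each averaged less at 10 d than in CK and more at 15 d than in CK, under both metals. Because their levels fall into separate clusters by time, no correlation over all libraries is given, and the Pearson r of deviations from group means lay between -0.60 and 0.09. For CSS0006162 the mean FPKM was 229 in Cd2, 2.37 in Cd1, 262 in As2, 1.88 in As1 and 81.6 in CK, so that it was low at 10 d, where CSS0004428 averaged 26.7 in Cd1 and 20.7 in As1. The pooled SDs of the 7 genes lay between 0.322 and 0.511, beside 1.47 for CSS0004428.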

How the data were processed

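Root libraries of 5 groups were compared. Per the methods of the study, reads were cleaned of adapters and poor bases and aligned with HISAT to the tea genome (version not given in the sources used here). The authors deposited FPKM values, for which the results text of the paper names the DESeq2 package, and these were used without further scaling. The values of CSS0004428 were read by its identifier. The gene and the lists were chosen with earlier results of these data known. All genes reaching an FPKM of 1 in 3 or more libraries entered 1 model over all groups, without a replicate block, on log2(FPKM + 1). It was fitted by lmFit, contrasts.fit and eBayes with trend (limma 3.58.1, R 4.3.3). Other values came from scipy 1.17.1, pandas 2.3.3 and numpy 2.4.6 under Python 3.11.15, with 100000 resamples for correlations across libraries and exact enumeration for the treated libraries against CK.

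Whole fragments were recovered for all 43036 genes above 0 in 3 or more libraries (tolerance 0.01 fragments), and the genes left out held at most 0.0272% of the FPKM of a library. They served for depth and for 1 alternative. The fits and the recovery were tested on simulated data. Besides CSS0004428, genes were named by rule, as the 7 other candidates of the study, the 5 nearest in mean, and those among the 5 most and 5 least correlated with it that carry a CSS identifier. CSS0046609 was named outside the rule, after its values were seen. Up to 25 settings were computed per comparison, varying the pseudocount, filter, scaling, libraries, identical library, model and replicate block. No position is given, since the deposited annotation holds none of the CSS identifiers. The qRT-PCR values were not used here.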

Additional observations from a re-analysis of the deposited data

How the results depend on the processing

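CSS0004428 was not a DEG in any of the 9 comparisons under any setting. Over 25 settings, the log2 fold change ran from 0.99 to 2.53 in Cd2 vs. CK (limma adjusted p from 0.287 to 0.824), from 1.499 to 3.11 in Cd1 vs. CK (0.0870 to 0.624), from 1.70 to 3.54 in As2 vs. CK (0.461 to 0.926) and, for As1 vs. CK, from 1.097 to 2.59 (0.251 to 0.670). These ends are also the lowest and highest values when 1 library was left out. For the mean of the treated groups they were 1.74 and 2.33 (24 settings, adjusted p from 0.166 to 0.612). Leaving out 1 library turned the sign of differences between treated groups, from -1.35 to 0.26 in Cd2 vs. Cd1, -0.21 to 1.81 in As2 vs. As1, -0.28 to 1.39 in Cd1 vs. As1 and -1.78 to 0.15 in Cd2 vs. As2. The difference of 2.01 between treated and CK libraries ran from 1.72 to 2.22 without 1 library. With the identical library kept under both labels it was 1.99 (exact permutation p = 0.0440). That setting counts the same values as 2 libraries, so its p is not valid. Over 19 settings the exact permutation p ran from 0.0420 to 0.256 and was under 0.05 in 4. Besides the setting with the identical library, these left out a treated library inside the CK range, which favours a difference. None of the 4 is therefore evidence for a difference. The pooled SD lay between 1.19 (without As2 replicate 1) and 1.59 (pseudocount 0.1), and at most at 1.56 without 1 library. The number of DEGs over all genes moved far more, from 0 to 76 in Cd2 vs. CK (11 as reported), 257 to 1577 in Cd1 vs. CK (1053), 0 to 111 in As2 vs. CK (5), 103 to 640 in As1 (535) and 36 to 640 for the mean of the treated groups (169). Between treated groups it ran from 0 to 621 in Cd2 vs. Cd1 (508), 214 to 768 in As2 vs. As1 (696), 101 to 883 in Cd1 vs. As1 (539) and 0 to 5 in Cd2 vs. As2 (1).

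Libraries with the same replicate number were not more alike than others. Deviations from group means of libraries with the same number had correlations from -0.31 to 0.28 (median 0.01, 26 pairs). For other numbers they ran from -0.28 to 0.27 (median 0.02, 52 pairs). Of the 14 libraries, 3 correlated best with their own number. This does not show whether plants or libraries had been paired. With a replicate block the log2 fold change was 1.76 in Cd2, 2.10 in Cd1, 2.37 in As2, 1.72 in As1 and 1.99 for the mean of the treated groups, with no call.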

Other observations

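When group means were removed, so that only differences between replicates remained, the gene that moved most closely with CSS0004428 was CSS0046527 (Pearson r of deviations 0.924 over 14 libraries, beside 0.165 for the levels), followed by CSS0016526 (0.898) and CSS0031808 (0.896). The most opposite was CSS0047317 (-0.951), with an FPKM of 5.99, 4.46 and 7.14 in Cd2, 5.13 and 3.20 in Cd1, 7.77, 4.05 and 3.95 in As2, 6.71, 6.29 and 12.3 in As1, and 5.39, 5.78 and 6.31 in CK. It was highest of its group in Cd2 replicate 3, As2 replicate 1 and As1 replicate 3, the treated libraries where CSS0004428 was at the CK level. Only 1 gene reached an r of 0.9 in the deviations and 3 reached -0.9, whereas the median similar gene had 10 and 9 such genes. These genes were picked as extremes from 33108, and the values are a description with no test.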
